A study of Mus musculus with 12 samples.

Results

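Type I interferon-stimulated genes are described here in RNA-seq counts of mouse cardiomyocytes. The members are 37 genes listed by name, among them sensors, transcription factors, effectors and regulators of the interferon response. The rule itself uses no measured value, but the members were chosen with earlier results of these data known. The counts table held 35 of them among 22794 genes, all 35 passed the filter on low counts along with 14412 genes in all, and *Mx1* and *Mx2* were not analysed here. The study crossed surgery with injection in WT mice of the C57BL6 strain: sham surgery with saline (sham saline), sham surgery with JV101 (sham JV101), 5/6 nephrectomy with saline (NX saline) and 5/6 nephrectomy with JV101 (NX JV101), with 3 libraries in each group. Hearts were taken 16 weeks after surgery, and all 12 libraries are of polyA RNA from cells labelled cardiomyocytes. 5/6 nephrectomy removes most of the kidney mass and serves as a model of chronic kidney disease. The title names telomere recapping by gene therapy, but what JV101 contains, its dose and timing, the age of the mice and whether animals were pooled are not stated in the sources used here.

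Type I interferons are secreted proteins that bind a receptor of the subunits IFNAR1 and IFNAR2 on nearly every cell type. The receptor's kinases JAK1 and TYK2 phosphorylate STAT proteins, STAT2 among them, which join IRF9 in a complex, ISGF3, that enters the nucleus and binds the interferon-stimulated response element (ISRE) in the promoters of target genes. Those targets are the best known antiviral genes. In the heart the same program is known from viral myocarditis and from the response to nucleic acids released by injured cells, and cardiomyocytes, endothelial cells and macrophages can all run it.

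Copies of the ISRE in the members' promoters are shown first, since it is the element that ISGF3 binds. Promoters of RefSeq on GRCm38.p6, running from 250 bases before to 50 bases after the start of transcription, were found for 27 of the 35 members. The core searched was GAAANNGAAA, on both strands, with N for any base. It occurred in 13 of the 27 (48.1%, Wilson 95% interval 30.7% to 66.0%, counting error only), against 3.44% of all 32851 promoters of the same length and 3.76% of the 11408 tested genes with a promoter. In 10 members at least 1 copy lay before the start. The windows below, chosen to show single, paired and overlapping copies, read 5′ to 3′ along the gene, and capitals mark the core as it occurs on the printed strand, including overlapping copies. 
Isg15: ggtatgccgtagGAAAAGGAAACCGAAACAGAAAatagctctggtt
Oas1a: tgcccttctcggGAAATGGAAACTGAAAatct
Bst2: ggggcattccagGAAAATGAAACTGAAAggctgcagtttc
Ifit1: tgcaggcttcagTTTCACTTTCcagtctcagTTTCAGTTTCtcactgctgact
Ifit3: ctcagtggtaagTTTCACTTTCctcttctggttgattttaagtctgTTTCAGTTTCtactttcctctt
Stat2: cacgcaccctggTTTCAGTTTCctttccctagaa
Rsad2: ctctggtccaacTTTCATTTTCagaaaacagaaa

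*Isg15* carried 3 overlapping copies within 46 printed bases, at chr4:156200863-156200908 on the minus strand. *Oas1a* (chr5:120907526-120907557, minus strand) and *Bst2* (chr8:71537575-71537614, minus strand) carried 2 overlapping copies each. *Ifit1* (chr19:34640773-34640825, plus strand) and *Ifit3* (chr19:34583361-34583428, plus strand) had 2 separate copies on the opposite strand, and *Stat2* (chr10:128270264-128270297, plus strand) and *Rsad2* (chr12:26456551-26456584, minus strand) had 1. *Ifit3b* (chr19:34607757-34607824, plus strand) had a 68-base window identical to that of *Ifit3*. *Oas3* and *Trim30a* also had a copy before the start, and in *Ifih1*, *Ifitm3* and *Eif2ak2* it was found only after it. The 14 members without the core in this window were *Ifit2*, *Oasl1*, *Oasl2*, *Irf7*, *Irf9*, *Dtx3l*, *Ifi44*, *Ifi35*, *Xaf1*, *Cmpk2*, *Ifi47*, *Herc6*, *Samd9l* and *Lgals3bp*. The gamma-activated site TTCNNNGAA, which reads the same on both strands and is bound by STAT dimers, occurred in 6 of the 27 members (22.2%) and in 8.30% of all promoters. In *Bst2* the gamma-activated site overlapped the first ISRE copy. A match is a description of these letters and was not tested for binding.

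The libraries held 26.4 to 33.8 M counts, of which 36.7% to 69.0% came from the 13 protein genes of the mitochondrial genome, leaving 8.38 to 20.7 M for nuclear genes. Between 4472 and 26142 of a library's counts fell on the 35 members together. Levels are given as CPM, counts per 1 M counts of a library, scaled with TMM factors, which adjust library sizes for composition. The cell label was checked against 10 cardiomyocyte markers, among them *Myh6*, *Tnnt2* and *Ryr2*: all were counted in every library, and together they took 35168 to 65265 CPM. Endothelial markers (10 genes, 401 to 2303 CPM), fibroblast markers (10 genes, 516 to 2914 CPM) and macrophage markers (12 genes, 115 to 604 CPM) were present in every library too. T and NK cell markers summed to 0.78 to 4.17 CPM, with 7 of 10 at 0 counts in at least 1 library. The RNA is therefore a mixture in which fewer cells of a type and less RNA per cell cannot be told apart.

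By deposited FPKM, a length-scaled measure, the members spanned low to high levels, from *Oas3*, above 7.88% of the genes tested, to *Ifitm3*, above 97.2%. *Lgals3bp*, *Ifi27* and *Bst2* were also high, above 89.1%, 89.3% and 90.9% of genes. Most members moved up and down together from library to library. A member score was formed for each library as the mean over the 35 genes of log2 CPM (prior count 2) minus the gene's own mean over the 12 libraries, so that 0 is the average over libraries. It was 0.84, −0.55 and −0.79 in sham saline replicates 1 to 3, 0.50, −0.36 and −0.87 in sham JV101, −0.67, −0.23 and 0.70 in NX saline, and 0.03, 0.56 and 0.85 in NX JV101. Sham saline 1, sham JV101 1 and NX saline 3 thus stood well above the other libraries of their own group, and NX JV101 was the group with no low library. The sham saline mean was −0.17 ± 0.88, that of sham JV101 −0.25 ± 0.69, that of NX saline −0.07 ± 0.70 and that of NX JV101 0.48 ± 0.42 (SD, n = 3, here and in later group means). The ranges of all 4 groups overlapped.

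**Figure D1:**
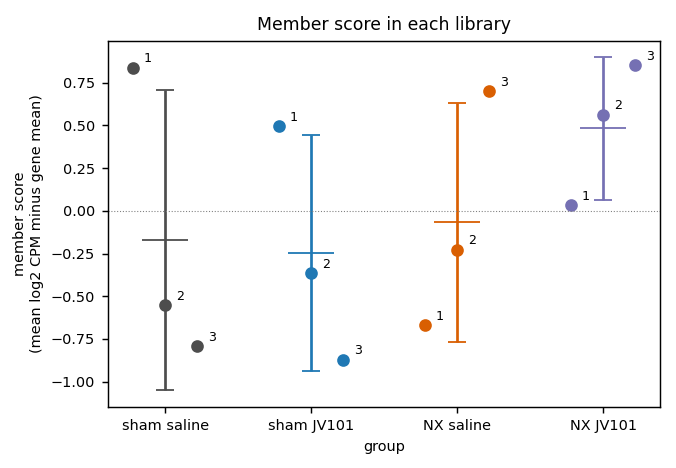
Member score (vertical axis, mean log2 CPM minus gene mean) in each of the 12 libraries by group (horizontal axis). Numbers beside the points are replicate numbers, the wide bar is the mean and the error bar the SD of 3 libraries. Sham saline 1 (0.84), sham JV101 1 (0.50) and NX saline 3 (0.70) lie far above their groups, and the NX JV101 libraries run from 0.03 to 0.85.

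The median Pearson r over the 595 pairs of members was 0.81 across the 12 libraries and 0.83 once group means were removed, and 90.9% of pairs were above 0.5. One component held 77.6% of the members' variance and the next 8.72%. Pairs shared their libraries and sequencing depth, and the r values describe only these 12 samples. The closest pair was *Ifi44* and *Xaf1* (r = 0.98), the farthest *Oas3* and *Herc6* (r = −0.05). Differences between the 4 groups took 20.4% of the variance of the score, and a median of 24.5% over single members, against 19.9% over all genes tested. Some variance falls between groups of 3 libraries even where the groups do not differ. Among members that share was highest for *Oas3* (43.4%, with 1 to 47 counts per library) and *Usp18* (43.2%) and lowest for *Ifi47* (2.28%). In sham saline 1, 34 of the 35 members lay above their own mean, in sham JV101 1 33, in NX saline 3 35, in NX JV101 2 34 and in NX JV101 3 35. In sham saline 3, sham JV101 3 and NX saline 1 only 1 did.

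**Figure D2:**
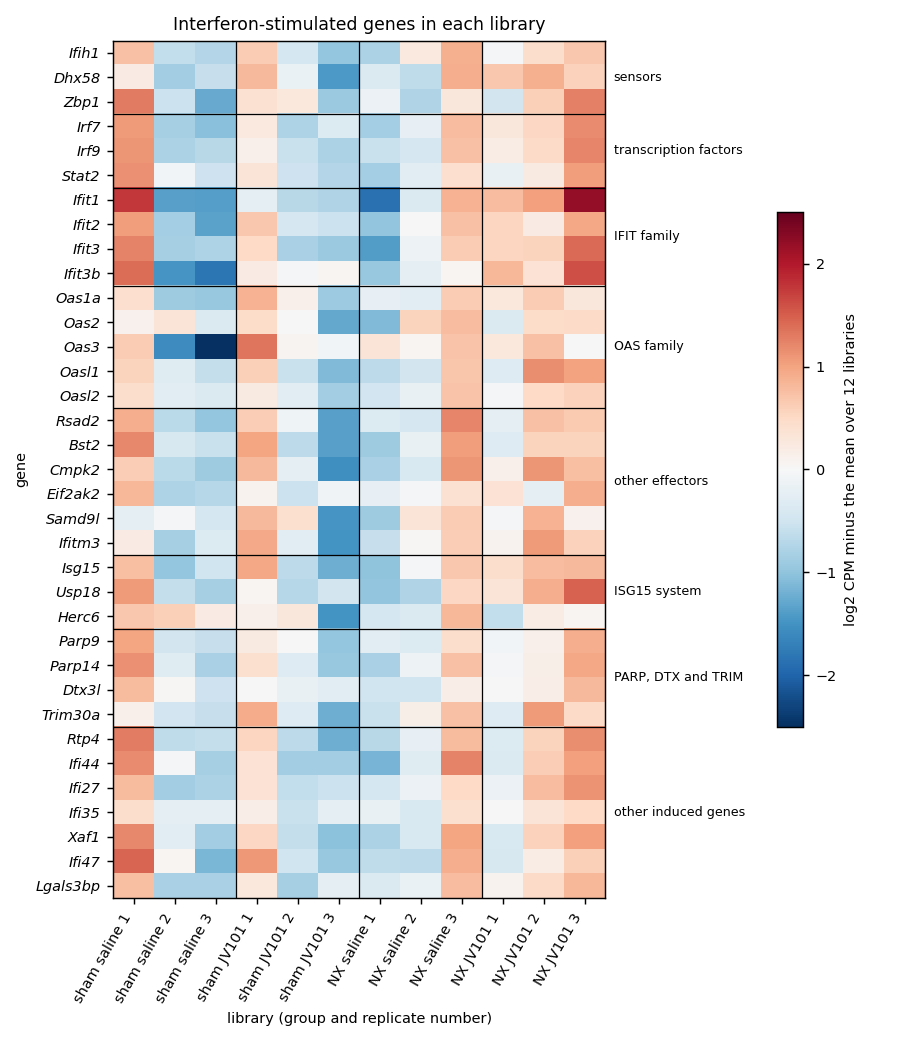
Each row is 1 of the 35 measured members, grouped by role, and each column 1 library. Colour is the deviation of log2 CPM (prior count 2) from the mean of the row, red for higher and blue for lower. Columns sham saline 1, sham JV101 1, NX saline 3, NX JV101 2 and NX JV101 3 are red for 33 or more of the 35 genes.

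Among the transcription factors, *Irf9* encodes the DNA-binding subunit of ISGF3. *Irf9* was at 26.3, 7.04 and 7.55 CPM in sham saline replicates 1 to 3, 13.4, 8.36 and 7.04 in sham JV101, 8.30, 9.20 and 20.5 in NX saline, and 13.9, 17.1 and 28.7 in NX JV101. Each of the 3 NX JV101 libraries was above every sham JV101 library, while sham saline 1 and NX saline 3 reached the NX JV101 range. *Stat2*, its partner in the complex, was at 33.2, 14.3 and 10.5 CPM in sham saline replicates 1 to 3, 18.8, 10.6 and 8.98 in sham JV101, 8.34, 12.5 and 20.3 in NX saline, and 13.3, 17.5 and 31.1 in NX JV101. Sham saline 1 and NX JV101 3 were about level at the top for *Stat2*, and all 4 groups overlapped. *Irf7*, the factor that amplifies interferon production, ranged from 4.95 CPM in sham saline 3 to 23.6 in NX JV101 3, with group means of 10.8 ± 9.41 CPM for sham saline, 8.72 ± 3.14 for sham JV101, 10.7 ± 6.22 for NX saline and 16.9 ± 5.83 for NX JV101. Its NX JV101 libraries (12.6 to 23.6) all exceeded its sham JV101 libraries (5.96 to 12.1). *Irf7* and *Irf9* had no ISRE core in the window searched, *Stat2* had 1. Across the 12 libraries the r between *Stat2* and *Irf9* was 0.91.

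Among the cytosolic sensors, *Dhx58* encodes LGP2, a helicase that tunes the detection of viral RNA, and *Ifih1* encodes MDA5, which binds long double-stranded RNA. *Dhx58* was at 1.54, 0.693 and 0.867 CPM in sham saline replicates 1 to 3, 2.38, 1.17 and 0.449 in sham JV101, 1.01, 0.834 and 2.55 in NX saline, and 2.15, 2.52 and 2.02 in NX JV101. NX JV101 (2.02 to 2.52) lay above all 3 sham saline libraries (0.69 to 1.54) without overlap, and overlapped sham JV101 (0.45 to 2.38) and NX saline (0.83 to 2.55). The level is low, with 12 to 107 counts per library. *Ifih1* ranged from 4.13 CPM in sham JV101 3 to 15.0 in NX saline 3. *Zbp1*, a sensor of Z-form nucleic acids that can trigger necroptosis, ranged from 0.46 CPM in sham saline 3 to 3.02 in sham saline 1.

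The IFIT family encodes proteins that bind viral RNA lacking the host cap structure. These 4 genes had the widest range of any role: their mean score ran from −1.32 in sham saline 3 to 1.55 in NX JV101 3. *Ifit1* was at 17.7, 1.96 and 1.95 CPM in sham saline replicates 1 to 3, 4.29, 3.16 and 3.02 in sham JV101, 1.36, 4.00 and 9.48 in NX saline, and 8.86, 10.5 and 23.7 in NX JV101. Every NX JV101 library exceeded every sham JV101 library, but sham saline 1 stood above 2 of the 3 NX JV101 libraries and NX saline 3 above 1. *Ifit3* was at 13.6, 3.23 and 3.34 CPM in sham saline replicates 1 to 3, 8.15, 3.25 and 2.99 in sham JV101, 2.16, 5.26 and 8.94 in NX saline, and 8.45, 8.55 and 15.5 in NX JV101. The order of the groups was the same for *Ifit3*, again with no overlap between NX JV101 and sham JV101. *Ifit3b* is a near-identical copy of *Ifit3*, so reads could have been split between the 2 genes or dropped, and the separate values of each are uncertain. *Ifit3b* was at 5.94, 0.75 and 0.588 CPM in sham saline replicates 1 to 3, 2.54, 2.12 and 2.28 in sham JV101, 1.11, 1.87 and 2.27 in NX saline, and 3.98, 2.85 and 6.88 in NX JV101. For *Ifit3b* all 3 NX JV101 libraries lay above the 3 of NX saline and above the 3 of sham JV101, and below sham saline 1 in 2 of 3 cases. *Ifit2* ranged from 3.78 CPM in sham saline 3 to 20.2 in sham saline 1. Over the 12 libraries *Ifit1* and *Ifit3* had an r of 0.96 and *Ifit3* and *Ifit3b* 0.83.

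**Figure D3:**
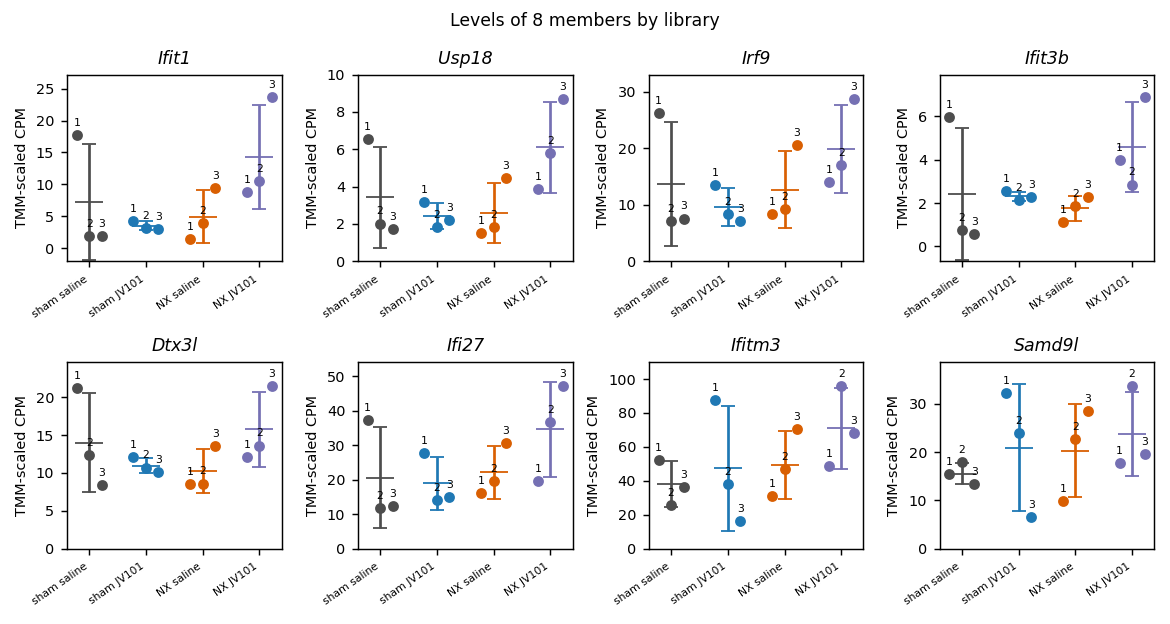
TMM-scaled CPM (vertical axes, each on its own scale) of 8 members in the 4 groups. Points are libraries with their replicate numbers, the wide bar is the mean and the error bar the SD of 3 libraries, which for Ifit1 and Ifit3b in sham saline extends below 0. For Ifit1, Usp18, Irf9, Ifit3b and Dtx3l the 3 NX JV101 points lie above the 3 sham JV101 points, and for Ifit1 the sham saline 1 point (17.7 CPM) lies within the NX JV101 range.

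In the ISG15 system, *Isg15* encodes a ubiquitin-like modifier, *Herc6* the main mouse ligase that attaches it and *Usp18* the protease that removes it and restrains signalling at the receptor. *Usp18* was at 6.55, 2.02 and 1.70 CPM in sham saline replicates 1 to 3, 3.17, 1.85 and 2.22 in sham JV101, 1.52, 1.81 and 4.44 in NX saline, and 3.85, 5.80 and 8.70 in NX JV101. No sham JV101 library reached the lowest NX JV101 library, while sham saline 1 and NX saline 3 lay within the NX JV101 range. *Isg15* ranged from 1.05 CPM in sham JV101 3 to 4.98 in sham JV101 1, with group means of 2.45 ± 1.64 CPM for sham saline, 2.54 ± 2.13 for sham JV101, 2.58 ± 1.42 for NX saline and 4.10 ± 0.577 for NX JV101. *Herc6* went its own way: its r with the mean of the other members was 0.49, the lowest of the 35. It averaged 6.70 ± 1.13 CPM for sham saline, 4.15 ± 2.21 for sham JV101, 5.15 ± 2.81 for NX saline and 4.41 ± 1.21 for NX JV101, and its 3 NX JV101 values (3.03 to 5.33) all lay below its 3 sham saline values (5.42 to 7.52).

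The OAS family encodes enzymes that answer double-stranded RNA by making 2′-5′ linked oligoadenylates, which activate the nuclease RNase L. *Oas2* was the most counted, from 5.09 CPM in sham JV101 3 to 21.4 in NX saline 3, and *Oasl2* ranged from 4.49 to 13.6 in the same 2 libraries. *Oasl1*, known to curb translation of *Irf7*, ranged from 0.57 to 2.95 CPM. *Oas1a* ranged from 1.11 to 4.05 CPM and has close paralogs such as *Oas1g*, so its counts are uncertain in the same way as those of *Ifit3b*. *Oas3* had 1 to 47 counts per library. Its sham saline libraries held 30, 2 and 1 counts, too few for a fold.

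The other effectors held the highest levels. *Ifitm3*, whose product blocks the fusion of viruses with endosomes, had the highest deposited FPKM of the members, a mean of 84.7. *Ifitm3* was at 52.5, 25.6 and 36.2 CPM in sham saline replicates 1 to 3, 87.7, 38.0 and 16.1 in sham JV101, 30.7, 46.7 and 70.6 in NX saline, and 48.5, 95.8 and 68.3 in NX JV101. NX JV101 2 and sham JV101 1 were highest, sham JV101 3 lowest, and all 4 groups overlapped. *Bst2*, which tethers budding virions to the cell surface, came next with a mean of 23.1 FPKM, and was at 35.1, 11.5 and 10.3 CPM in sham saline replicates 1 to 3, 30.1, 9.67 and 5.87 in sham JV101, 8.14, 13.4 and 31.5 in NX saline, and 12.2, 22.2 and 22.3 in NX JV101. Sham saline 1, NX saline 3 and sham JV101 1 were its 3 highest libraries, and none of them was of NX JV101. *Samd9l*, a restrictor of growth and of poxviruses, was at 15.4, 17.9 and 13.4 CPM in sham saline replicates 1 to 3, 32.2, 24.0 and 6.56 in sham JV101, 9.79, 22.8 and 28.4 in NX saline, and 17.6, 33.7 and 19.7 in NX JV101. It was among the members least like the rest (r 0.63 with their mean), and sham saline 1, high for most members, was not high for it.

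*Rsad2* encodes viperin, which makes a chain-terminating nucleotide, and *Cmpk2*, its neighbour in the genome, encodes a kinase that feeds it. *Rsad2* was at 24.2, 8.02 and 6.50 CPM in sham saline replicates 1 to 3, 19.8, 11.8 and 5.00 in sham JV101, 10.1, 9.63 and 29.8 in NX saline, and 10.8, 21.4 and 20.1 in NX JV101. NX saline 3 was highest, followed by sham saline 1. The r between *Rsad2* and *Cmpk2* was 0.96, and *Cmpk2* ranged from 2.13 CPM in sham JV101 3 to 13.6 in NX JV101 2. *Eif2ak2*, the double-stranded RNA kinase PKR that halts translation, ranged from 6.98 CPM in sham saline 2 to 22.5 in NX JV101 3.

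*Parp9* and *Dtx3l* encode partners in an ADP-ribosylating and ubiquitin ligase complex, and *Parp14* a macro-domain ADP-ribosyltransferase. *Parp14* was at 55.6, 20.4 and 14.5 CPM in sham saline replicates 1 to 3, 33.3, 20.1 and 13.1 in sham JV101, 14.3, 23.1 and 41.8 in NX saline, and 24.6, 27.9 and 49.4 in NX JV101. Sham saline 1 and NX JV101 3 were highest for *Parp14*, and the groups overlapped. *Dtx3l* was at 21.2, 12.4 and 8.42 CPM in sham saline replicates 1 to 3, 12.1, 10.7 and 10.1 in sham JV101, 8.53, 8.59 and 13.6 in NX saline, and 12.2, 13.6 and 21.5 in NX JV101. NX JV101 lay just above sham JV101 for *Dtx3l* (12.2 to 21.5 against 10.1 to 12.1). The r between *Parp9* and *Dtx3l* was 0.86. *Trim30a*, a mouse TRIM protein that restrains inflammatory signalling, ranged from 2.94 CPM in sham JV101 3 to 14.5 in NX JV101 2.

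Of the other induced genes, *Lgals3bp* encodes a secreted glycoprotein that binds galectins. *Lgals3bp* was at 63.9, 21.6 and 21.6 CPM in sham saline replicates 1 to 3, 45.5, 21.3 and 32.5 in sham JV101, 29.6, 33.8 and 64.4 in NX saline, and 40.3, 52.6 and 67.8 in NX JV101. NX JV101 3, NX saline 3 and sham saline 1 were within a few CPM of each other at the top. *Ifi27* was at 37.4, 11.8 and 12.4 CPM in sham saline replicates 1 to 3, 27.8, 14.0 and 15.0 in sham JV101, 16.0, 19.5 and 30.7 in NX saline, and 19.7, 36.8 and 47.1 in NX JV101. For *Ifi27*, which encodes a small mitochondrial protein, NX JV101 2 and 3 were near or above sham saline 1, and NX JV101 1 was at the level of NX saline 2. *Ifi35* varied least, from 7.37 CPM in sham JV101 2 to 15.4 in NX JV101 3, and *Rtp4*, *Ifi44*, *Xaf1* and *Ifi47* had mean levels of 3.39 to 7.60 CPM.

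Tests of single genes asked whether surgery, injection or both together moved these levels beyond the spread between libraries. edgeR's quasi-likelihood test, with Benjamini-Hochberg adjustment across all 14412 genes, called 0 of the 35 members at 0.05 in each of the 5 comparisons of 2 groups and in the interaction of nephrectomy and JV101. It called 0% of all genes there as well. DESeq2 and limma on the deposited FPKM called 0 members too, while DESeq2 called 1 gene of all those tested in NX saline against sham saline, 4 in NX JV101 against NX saline, 3 in NX JV101 against sham saline and 0 elsewhere. The median standard error (SE) of a member's log2 fold change was 0.55 to 0.56 in the comparisons of 2 groups. The counts of members given next are descriptions, since the genes move together and are not separate results.

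After nephrectomy in saline mice the members did not lean either way. Of the 35, 16 had positive and 19 negative log2 fold changes in NX saline against sham saline, with a median of −0.03, where the median over all genes tested was 0.02. None had an unadjusted edgeR p under 0.05, against 3.64% of all genes, and none had groups without overlap, against 4.9% of genes higher and 5.92% lower. The smallest p was that of *Dtx3l* (log2 fold change −0.46, SE 0.33, unadjusted p = 0.19), which was at −0.022 without sham saline 1. The IFIT genes had a median of −0.42 and the other effectors 0.34, both smaller than the median SE of 0.56. On log2 FPKM plus 1 the members split 17 to 18 with a median of −0.05. This near-zero median rested on sham saline 1. Without that library it was 0.71, with 33 of 35 members positive and 5 at an unadjusted p under 0.05, where 3.44% of all genes were. It was 0.23 without NX saline 1, 0.07 without NX saline 2, −0.46 without NX saline 3, −0.24 without sham saline 2 and −0.35 without sham saline 3.

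With JV101 after sham surgery most members were slightly negative. In sham JV101 against sham saline 27 of 35 were below 0 and 8 above, with a median of −0.21 (all genes 0.03), though with limma on log2 FPKM plus 1 the split was 19 to 16 and the median −0.04. None had an unadjusted edgeR p under 0.05 (1.7% of all genes), and none was without overlap (1.76% of genes higher, 2.07% lower). The 8 positive members were *Isg15*, *Cmpk2*, *Ifitm3*, *Trim30a*, *Dhx58*, *Samd9l*, *Oas1a* and *Oas3*. All 7 other induced genes, all 4 IFIT genes and all 3 transcription factors were negative by edgeR, for example *Stat2* (log2 fold change −0.60, SE 0.48, unadjusted p = 0.241) and *Ifit1* (log2 fold change −1.06, SE 0.84, unadjusted p = 0.235). Single libraries again set the direction. Without sham saline 1 *Stat2* was at 0.055 and *Ifit1* at 0.84. The median was 0.59 without sham saline 1, −0.38 without sham saline 2, −0.41 without sham saline 3, −0.63 without sham JV101 1, −0.08 without sham JV101 2 and 0.01 without sham JV101 3.

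With JV101 after nephrectomy most members were positive. In NX JV101 against NX saline 32 of 35 were above 0, with a median of 0.42 (all genes 0.01), and the exceptions were *Herc6* (−0.21), *Oas2* (−0.04) and *Oas3* (−0.00071). On log2 FPKM plus 1, where the median of all genes itself was 0.21, all 35 were positive with a median of 0.58. *Usp18* was the only member with an unadjusted edgeR p under 0.05 (log2 fold change 1.26, SE 0.56, unadjusted p = 0.0439), against 2.39% of all genes. *Usp18* averaged 2.59 ± 1.61 CPM for NX saline and 6.12 ± 2.44 for NX JV101, and its fold change ran from 0.92 without NX JV101 3 to 1.85 without NX saline 3. *Ifit3b* was the only member whose groups did not overlap (log2 fold change 1.39, SE 0.72, unadjusted p = 0.0776), where 4.52% of all genes were higher and 3.69% lower without overlap. *Ifit1* averaged 4.95 ± 4.14 CPM for NX saline and 14.3 ± 8.12 for NX JV101 (log2 fold change 1.56, SE 0.85, unadjusted p = 0.0912), from 0.99 without NX JV101 3 to 2.40 without NX saline 3. The IFIT genes had the largest median of any role, 1.20, and the other effectors a median of 0.29. Leaving out NX saline 3 raised the members' median to 0.86 and leaving out NX saline 1 lowered it to 0.24, and the other libraries kept it between 0.30 and 0.62.

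Among mice given JV101, nephrectomy gave the most even direction of the comparisons by edgeR. In NX JV101 against sham JV101 34 of 35 members were positive, with a median of 0.62 (all genes 0.00), and *Oas3* was the exception (−0.26, but 0.41 without sham JV101 1). The groups did not overlap for 7 members, all higher in NX JV101: *Ifit1*, *Ifit3*, *Ifit3b*, *Usp18*, *Irf7*, *Irf9* and *Dtx3l*. Of all genes 2.69% were higher and 2.42% lower without overlap. Unadjusted edgeR p under 0.05 was reached by *Usp18* (log2 fold change 1.34, SE 0.56, unadjusted p = 0.0342) and *Ifit1* (log2 fold change 2.03, SE 0.86, unadjusted p = 0.0362), against 2.07% of all genes. The transcription factors had a median of 0.95, with *Irf9* at 1.05 (SE 0.53, from 0.69 without NX JV101 3 to 1.37 without sham JV101 1), and the IFIT genes 1.07. The members' median was 1.08 without sham JV101 1, with 13 members at an unadjusted p under 0.05, but 13.3% of all genes were so in that fit. It was 0.37 without sham JV101 3 and 0.40 without NX JV101 3, and 0.55 to 0.79 in the other 3 fits.

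NX JV101 against sham saline sets both treatments together against neither. Here 32 of 35 members were positive, with a median of 0.54 (all genes 0.03), and *Herc6* (−0.60), *Ifi47* (−0.33) and *Bst2* (−0.01) were negative, of which *Herc6* alone stayed so with limma on FPKM. None had an unadjusted edgeR p under 0.05, although 6.21% of all genes did. *Dhx58* was higher without overlap (log2 fold change 1.09, SE 0.58, unadjusted p = 0.0869) and *Herc6* lower (log2 fold change −0.60, SE 0.46, unadjusted p = 0.213, or −0.39 without NX JV101 1), where 10.2% of all genes were higher and 8.23% lower. Without sham saline 1 the median was 1.22 with 14 members at an unadjusted p under 0.05, where 5.26% of all genes were. It was 0.32 without sham saline 2, 0.23 without sham saline 3 and 0.31 without NX JV101 3, and 0.41 and 0.71 without the other NX JV101 libraries.

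The interaction asks whether the JV101 difference after nephrectomy departs from that after sham surgery. It was positive for 31 of 35 members with a median of 0.55 (all genes −0.03). *Oas3* (−1.20), *Oas1a* (−0.22), *Samd9l* (−0.21) and *Trim30a* (−0.02) were negative, and the last 3 were positive with limma on FPKM. The value of *Oas3* rests on the few counts of sham saline given above, and was −3.47 without sham saline 1 and −0.53 without sham JV101 1. *Usp18* (log2 fold change 1.78, SE 0.79, unadjusted p = 0.0441) and *Ifit1* (log2 fold change 2.62, SE 1.19, unadjusted p = 0.0497) had an unadjusted edgeR p under 0.05, against 1.78% of all genes. *Usp18* was at 0.88 and *Ifit1* at 0.72 without sham saline 1. The members' median was −0.04 without that library, 1.16 without sham JV101 1, 1.09 without NX saline 3 and 0.92 without sham saline 3, and 0.39 to 0.81 in the other 8 fits.

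**Figure D4:**
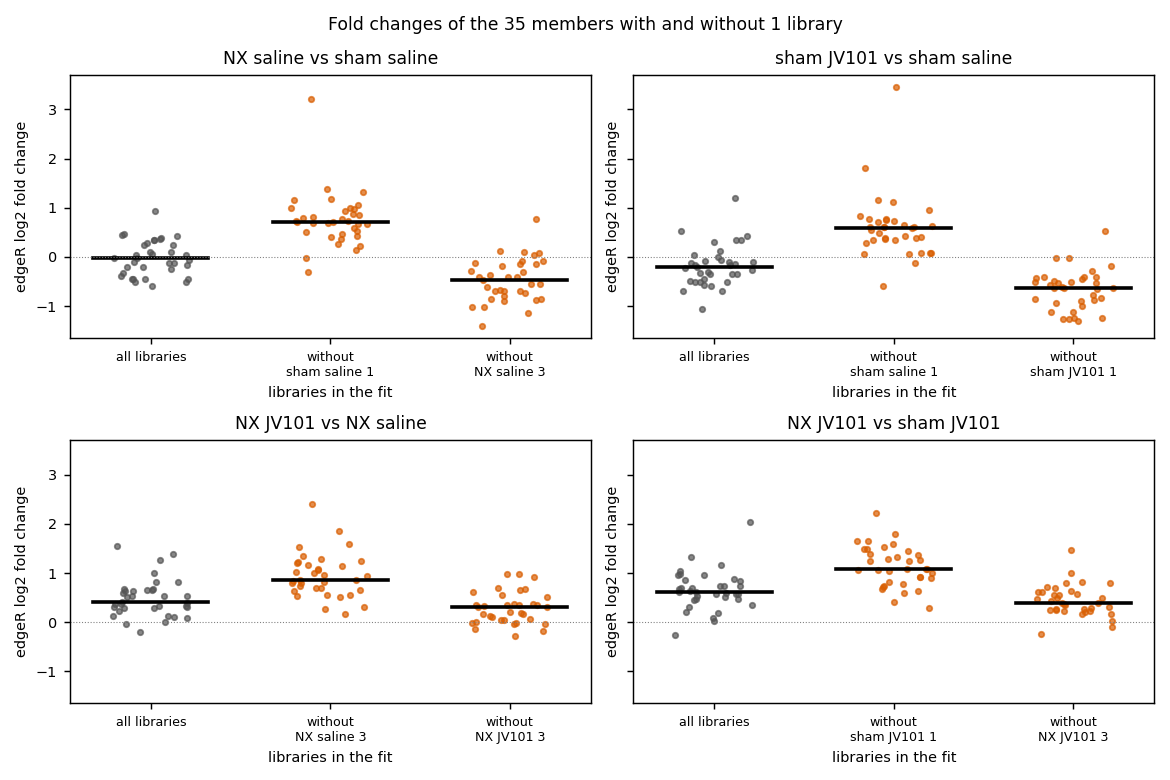
edgeR log2 fold changes (vertical axes) of the 35 members in 4 comparisons, with all libraries (grey) and with 1 library left out (orange). Each point is 1 member and the black bar the median. In NX saline against sham saline the median goes from −0.03 to 0.71 without sham saline 1 and to −0.46 without NX saline 3, whereas in NX JV101 against sham JV101 it is 0.62, 1.08 and 0.40.

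Both sham saline 1 and sham JV101 1 stood apart from their groups, so the members were also fitted without the pair, a choice made after their values were seen. The median for nephrectomy was then 0.68 in saline mice and 1.07 in JV101 mice, that for JV101 after sham surgery −0.02, that for both treatments against neither 1.19 and that of the interaction 0.52. An unadjusted p under 0.05 was reached by 23 members in NX JV101 against sham JV101, where 13.4% of all genes did so, and by 22 in NX JV101 against sham saline, where 7.51% did. No member passed after adjustment. Since these 2 libraries were left out for the values of the members themselves, these figures describe how much the result leans on them and support nothing. NX saline 3 also stood above its group but was kept in this fit, so only high sham libraries were removed. Leaving out NX saline 3 alone gave a median of −0.46 for nephrectomy in saline mice.

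The rest of the pathway was followed through lists of its parts. Of 21 interferon ligands, *Ifnb1* and *Ifng* were in the table and neither was tested. *Ifnb1*, the gene of interferon-beta, had 12 counts in sham JV101 1, 4 in NX JV101 3, 1 in NX saline 3 and 0 in the other 9 libraries. *Ifng*, the gene of interferon-gamma, had 7 counts in sham saline 1, 2 in NX saline 1, 1 each in NX JV101 1 and NX JV101 2 and 0 in the other 8. The libraries with *Ifnb1* counts were all among the 5 with the highest member scores. Sham saline 1 and NX JV101 2, also among those 5, had 0 *Ifnb1* counts. The library with most *Ifng* counts was among the 5 too, while NX saline 1, with 2, had a member score of −0.67. Counts this small allow no comparison of groups or libraries, and a link between ligand counts and member score was not tested. All 14 genes of receptors, JAK kinases, STATs and IRFs were tested, and none had an unadjusted p under 0.05 in any comparison. Their score ran with that of the members (r = 0.97 over the 12 libraries). Of the receptor genes, *Ifnar1* ranged from 12.7 to 21.1 CPM and *Ifnar2* from 15.7 to 27.1. In NX JV101 against sham JV101 *Tyk2* was at a log2 fold change of 0.23 (SE 0.14).

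Of the 17 tested nucleic acid sensors and adaptors outside the members, 1 had an unadjusted p under 0.05 in 1 comparison, *Aim2*, a sensor of cytosolic DNA (log2 fold change 1.04, SE 0.46, unadjusted p = 0.0432 in NX JV101 against sham saline). In that comparison 6.21% of all genes were so. The score of these genes had an r of 0.55 with that of the members. Of 12 negative regulators, *Nlrc3*, which restrains STING, had one in 3 comparisons: NX saline (log2 fold change 0.86, SE 0.39, unadjusted p = 0.0475), sham JV101 (log2 fold change 0.86, SE 0.38, unadjusted p = 0.0455) and NX JV101 (log2 fold change 1.42, SE 0.38, unadjusted p = 0.00313), each against the same sham saline libraries, which they share. *Ptpn2*, a phosphatase of JAK1, had one in the other direction in NX JV101 against sham saline (log2 fold change −0.38, SE 0.14, unadjusted p = 0.0212). Of all genes 3.64% were under 0.05 in NX saline, 1.7% in sham JV101 and 6.21% in NX JV101, each against sham saline. No negative regulator passed after adjustment. *Socs1*, the induced inhibitor of JAK kinases, was at 0.86 (SE 0.77) in NX JV101 against NX saline.

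A further list of 65 interferon-stimulated genes that are not members had 62 tested. Between NX JV101 and sham JV101 its median was 0.34, with 56 positive and 0 at an unadjusted p under 0.05, against 2.07% of all genes. Against sham saline, NX JV101 gave 0.31, with 49 positive and 5 under 0.05, a number near the 6.21% of all genes. In NX JV101 against NX saline the median was 0.20, with 49 positive and 0 under 0.05 (2.39% of all genes). Nephrectomy in saline mice gave 0.08, with 38 positive and 2 under 0.05, near the 3.64% of all genes. JV101 after sham surgery gave −0.02, with 30 positive and 1 under 0.05, near the 1.7% of all genes. The interaction gave 0.20, with 42 positive and 2 under 0.05, against 1.78% of all genes. *Oas1g*, the paralog of *Oas1a*, had the smallest p of the list between NX JV101 and sham saline, where it averaged 0.184 ± 0.0867 CPM for sham saline and 0.699 ± 0.202 for NX JV101 (log2 fold change 1.85, SE 0.54, unadjusted p = 0.00502). It was also under 0.05 in NX saline (log2 fold change 1.46, SE 0.54, unadjusted p = 0.0202) and in sham JV101 (log2 fold change 1.56, SE 0.54, unadjusted p = 0.0138), each set against the same sham saline libraries, and its counts are uncertain like those of *Oas1a*. The sham saline mean of *Oas1g* was also below that of *Oas3* (0.305 CPM), so all 3 of these fold changes rest on very few counts. *Ifi27l2a* averaged 5.32 ± 1.80 CPM for sham saline and 16.2 ± 4.64 for NX JV101 (log2 fold change 1.60, SE 0.55, unadjusted p = 0.0131). *Ifitm1*, the neighbour and paralog of *Ifitm3*, averaged 1.07 ± 0.316 CPM for sham saline and 3.05 ± 1.25 for NX JV101 (log2 fold change 1.52, SE 0.57, unadjusted p = 0.0218). The 15 GTPases best known as targets of interferon-gamma were all positive in NX JV101 against sham JV101 (median 0.98) and all negative in NX saline against sham saline (median −0.74) and in sham JV101 against sham saline (median −1.16). Their median between NX JV101 and NX saline was 0.67, and between NX JV101 and sham saline −0.06. For the interaction it was 1.58, and 5 of the 15 had an unadjusted p under 0.05, against 1.78% of all genes. Their score was highest in sham saline 1 (2.23) and NX JV101 3 (1.84), for instance *Igtp* at 213 and 207 CPM there against 5.15 to 53.2 in the other 10 libraries.

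Outside the members, 14377 tested genes were searched for the pattern most like the member score, by Pearson r after removing group means over the 12 libraries. The 10 nearest were *Psmb8* (r = 0.99), *Traf4* (0.98), *H2-Q4* (0.98), *Gbp2* (0.98), *Parp12* (0.97), *H2-K1* (0.97), *B2m* (0.97), *Psmb9* (0.97), *Gbp9* (0.97) and *Tapbp* (0.97), and 87 genes were above 0.9. *B2m*, the light chain of MHC class I molecules, was at 384 CPM in sham saline 1, 327 in sham JV101 1 and 396 in NX saline 3, against 85.8 to 166 in the other libraries of those 3 groups. It was at 152, 309 and 298 CPM in NX JV101 1 to 3. *Psmb8*, a subunit of the immunoproteasome, was at 23.8, 18.8 and 19.0 CPM in the same 3 high libraries and at 8.21, 15.1 and 17.2 in NX JV101.

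Markers of other cell types moved with the members in part. The member score had an r of 0.77 with the endothelial score (10 of 10 markers counted in every library), 0.75 with that of smooth muscle and pericytes (8 of 8), 0.46 with fibroblasts (10 of 10), 0.37 with macrophages (12 of 12) and −0.62 with cardiomyocytes (10 of 10), each over 12 libraries that share depth and composition. Endothelial markers summed to 866 to 1142 CPM in sham saline, 401 to 2230 in sham JV101, 691 to 2303 in NX saline and 1162 to 2175 in NX JV101. Smooth muscle and pericyte markers took 544 to 777, 403 to 989, 486 to 876 and 722 to 1043 CPM in the same order, and cardiomyocyte markers 51058 to 61655, 35168 to 65265, 42404 to 58191 and 36172 to 51920. The endothelial sums of NX JV101 thus lay just above those of sham saline without overlap, where 10.2% of single genes were higher without overlap. Some others of the 14 lists also separated groups without overlap. Of single genes, 4.52% were higher and 3.69% lower without overlap in NX JV101 against NX saline. Atrial cardiomyocyte markers summed to 999 to 1639 CPM in NX JV101 and 303 to 570 in NX saline, mesothelial markers to 36.5 to 45.4 and 60.9 to 127, and B cell markers to 0.75 to 1.94 and 3.14 to 16.5. The largest part of the atrial sum was *Nppa*, at 627 to 946 CPM in NX JV101 and 161 to 352 in NX saline. The B cell sums of NX JV101 were below those of all 9 other libraries, and its mesothelial sums were also below those of sham saline (69.2 to 87.8). The mesothelial sums of sham JV101 (42.3 to 59.9) were likewise below those of sham saline and of NX saline. Neutrophil markers took 6.78 to 7.97 CPM in sham saline and 12.4 to 29.0 in NX saline. With the member score these lists had an r of 0.20 (atrial), −0.18 (mesothelial), −0.18 (B cell) and 0.19 (neutrophil), and the remaining lists 0.23 (monocyte), 0.23 (dendritic cell), −0.03 (plasmacytoid dendritic cell), 0.20 (T and NK cell) and −0.24 (airway epithelial). The plasmacytoid r used 6 of 9 genes and the T and NK cell r 4 of 10. In the plasmacytoid list 5 genes had 0 counts in at least 1 library, and *Cox6a2* alone took 781 to 1132 CPM. These 2 r values therefore say little about those cell types. Sham JV101 1, NX saline 3 and NX JV101 2 combined high member scores with the 3 highest sums of endothelial markers, 2230, 2303 and 2175 CPM. Sham saline 1 did not: it had 1142 CPM of endothelial and 164 CPM of macrophage markers, the second lowest macrophage level of the 12, beside a member score of 0.84. The part of other cell types in the group differences was not tested.

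**Figure D5:**
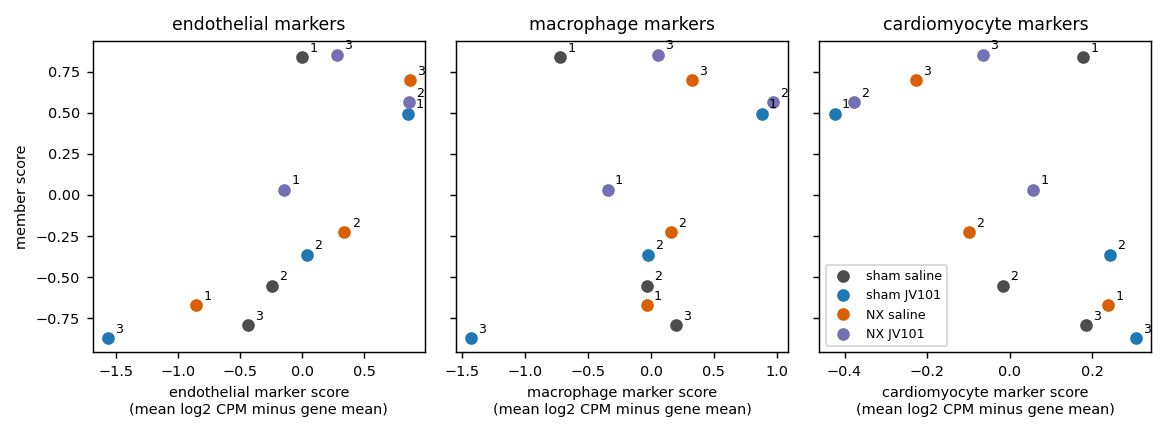
Member score (vertical axis) against the score of endothelial, macrophage and cardiomyocyte markers (horizontal axes, mean log2 CPM minus gene mean), 1 point per library, coloured by group and labelled with its replicate number. Sham JV101 1, NX saline 3 and NX JV101 2 are high on both the endothelial and the member axis, and sham saline 1 is high for members at a macrophage sum of 164 CPM.

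Members differed in how closely they followed the endothelial score. The r was highest for *Samd9l* (0.97), *Trim30a* (0.95), *Ifitm3* (0.92) and *Oas2* (0.92), and lowest for *Eif2ak2* (0.27), *Ifit3b* (0.32), *Dtx3l* (0.39) and *Oas3* (0.44). With the macrophage score it ran from 0.82 for *Samd9l* to −0.17 for *Eif2ak2*, and with the cardiomyocyte score from −0.17 for *Eif2ak2* to −0.89 for *Trim30a*. The members without overlap between NX JV101 and sham JV101 had endothelial r values of 0.52 (*Ifit1*), 0.65 (*Ifit3*), 0.32 (*Ifit3b*), 0.51 (*Usp18*), 0.54 (*Irf7*), 0.59 (*Irf9*) and 0.39 (*Dtx3l*). The share of mitochondrial counts had an r of −0.24 with the member score, and the total count 0.14.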

How the data were processed

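RNA-seq of 12 libraries from mouse cardiomyocytes was analysed. Per the labels' protocols, RNA was purified with an RNeasy kit and libraries were made from 1.3 µg with VAHTS Universal V6 reagents. The submitters' processing notes name fastp, HISAT2 and HTSeq with GRCm39. No version, annotation, strand setting or treatment of reads matching several genes is given in the sources used here. Gene counts deposited by the authors served for all tests, and their deposited FPKM for levels between genes and as an alternative. Columns were matched to samples by the column names in the labels. The labels number the replicates without saying what they mark, and p-values measure the spread between these samples, which may be technical.

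Genes were kept with filterByExpr (minimum count 10, minimum total count 15), scaled with TMM and tested in edgeR by quasi-likelihood in 1 fit of the 12 libraries by group. Tests were 2-sided, with Benjamini-Hochberg adjustment over all genes tested and a threshold of 0.05. Standard errors (log2) are the fold change over the root of its F statistic. The software was edgeR 4.0.16, DESeq2 1.42.0 and limma 3.58.1 in R 4.3.3, and the fit was tested on simulated data.

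The members and all lists (6 pathway lists, 14 lists of cell type markers) were chosen with earlier results of these data known. *Bst2* was left out of its marker list. Every member is accounted for by role. Values of every library are given for the 8 members with the highest mean CPM and the 8 with the smallest unadjusted p over the 6 comparisons, and up to 4 genes per pathway list and comparison were open to naming by smallest p. *Ifnar1*, *Ifnar2*, *Igtp* and the ligand genes are shown in addition, chosen after their values were seen. Promoter sequences are from RefSeq on GRCm38.p6, an older build than that of the counts.

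Alternatives were DESeq2, RLE factors, no filter, log2 FPKM (pseudocount 1 or 0.1) in limma, the replicate number as a block, fits restricted to the groups compared, leaving out each library, leaving out mitochondrially encoded genes, a prior count of 0.5, only members of at least 5 CPM, and a longer ISRE. The plan named mitochondrial genes by a symbol prefix that the table lacks, so its 13 mitochondrial protein genes were left out instead. A fit without sham saline 1 and sham JV101 1 was added after the data were seen.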

Additional observations from a re-analysis of the deposited data

How the results depend on the processing

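No member passed the adjusted threshold under any alternative run. Leaving out 1 library moved the members' median log2 fold change between −0.46 and 0.71 for NX saline against sham saline, between 0.24 and 0.86 for NX JV101 against NX saline, between −0.63 and 0.59 for sham JV101 against sham saline, between 0.37 and 1.08 for NX JV101 against sham JV101, between 0.23 and 1.22 for NX JV101 against sham saline, and between −0.037 and 1.16 for the interaction. The cause was not tested. The median in NX saline against sham saline was 0.025 with limma on log2 FPKM plus 0.1 and 0.68 without both sham saline 1 and sham JV101 1. DESeq2 called 1 gene of all those tested there, 4 genes for NX JV101 against NX saline and 3 for NX JV101 against sham saline, none a member. On log2 FPKM plus 0.1 the median of all genes ranged from −0.018 for NX saline against sham saline to 0.32 for NX JV101 against NX saline, which the member medians on that scale include.

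With the replicate block the medians were 0.090, 0.43, −0.17, 0.71, 0.62 and 0.55 in the order given above. Of 18 same-numbered pairs of libraries, 6 had an r of their deviations above 0.1 (−0.50 to 0.25). Pairs with different numbers were not set beside them, so this cannot tell whether the numbers pair the samples.

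The longer ISRE AGTTTCNNTTTC, which contains the core, occurred in 25.9% of the members with a promoter and in 0.27% of all promoters. Counted by gene, 0.40% of the tested genes with a promoter held it. DESeq2, RLE factors, no filter, fits of only the groups compared and leaving out mitochondrial genes kept the sign of every median. Depth limits the low members most, such as *Oas3* with 1 to 47 and *Dhx58* with 12 to 107 counts per library.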
